A study of Mus musculus with 53 samples.

Results

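The Sonic hedgehog pathway was described here through 9 genes: Ptch1, Smo, Gli1, Gli2, Gli3, Hhip, Mycn, Ccnd1 and Ccnd2. Their rows were taken by gene symbol, 9 of 55573 genes in the bulk RNA tables of mouse cerebellum at postnatal day 2 (P2) and 9 of 57010 genes in the single-cell count matrices at postnatal day 7 (P7). The study deleted Insm1, or Tead1 together with Tead2, with Atoh1Cre, a Cre recombinase expressed from Atoh1 sequences in the granule cell lineage, so other cerebellar cells keep both genes unless Cre was active in their ancestors. At P2 there were 4 Insm1fl/fl controls, 4 Atoh1Cre; Insm1fl/fl mutants, 3 Tead1fl/fl; Tead2fl/fl controls and 4 Atoh1Cre; Tead1fl/fl; Tead2fl/fl mutants, with 1 whole cerebellum of 1 pup in each library. The P2 controls carried the floxed alleles and no Cre is named for them, so the presence of Cre and the deletion cannot be told apart. At P7 there were 2 control and 3 mutant (KO) cerebella for each deletion, 1 pup in each library, whose alleles the labels do not spell out further; library number 1 of each group came from all lobules and the others from cerebella without lobules IX and X. The strain is not given in the sources used here.

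Granule cell progenitors line the outer surface of the newborn cerebellum and divide in response to Sonic hedgehog (Shh), which Purkinje cells release. In the absence of ligand the receptor Ptch1 holds the transducer Smo silent; ligand binding frees Smo in the primary cilium, and the transcription factors Gli2 and Gli3 change from repressing to activating their targets. Gli2 is the main activator and Gli3 acts mainly as a repressor. Gli1, an activator without a repressor form, is itself a direct target, as are Ptch1 and Hhip, which bind ligand and limit the signal. Mycn, Ccnd1 (cyclin D1) and Ccnd2 (cyclin D2) carry the response into the cell cycle.

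Depth and labels were checked first. The P2 libraries held 28066726 to 64518819 expected counts, and the P7 libraries 2570 to 5921 cells used here. Insm1 fell in its own mutants from 30.8 to 71.5 CPM (counts scaled to library size) in the 4 P2 controls to 8.39 to 16.1 CPM in the 4 mutants, and from 78.5 and 83.8 to between 7.17 and 27.7 CPM in P7 progenitors, where CPM is the gene's unique molecules (UMIs) scaled to the UMI total of the summed cells. Gene-level counts of Tead1 and Tead2 are not limited to the deleted parts: at P2 both overlapped between groups, and in P7 progenitors Tead2 was at 42.1 and 46.7 against 15.8 to 18.4 CPM while Tead1 was at 687 and 695 against 1555 to 1728. The P2 library labelled Tead1/2 mutant 4 stood apart from the other mutants. Its Tead2 level was 26.2 CPM, above the 3 controls (21.5 to 25.7) where mutants 1 to 3 lay below them (17.6 to 20.1), and its 16 skeletal muscle genes summed to 38.6 CPM, beside 38.6 to 43.4 CPM in the controls and 195 to 262 in mutants 1 to 3. Both values go against its label, whose correctness was not tested, so fits at P2 that include it are also given without it. Sex read from the P2 data was unbalanced: all 4 Insm1 controls and 2 of their 4 mutants were female, as were 1 of 3 Tead1/2 controls and 1 of 4 mutants, the library labelled mutant 4. A term for sex in the fit of each P2 deletion changed no call among the 9 genes.

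In control cerebella at P7 Gli1, Gli2, Mycn and Ptch1 had their highest mean in granule progenitors. Cells were clustered without the 9 genes and without the rest of the pathway list, and clusters were named from marker lists; the granule progenitor-like class held 1698 to 2599 cells in each of the 4 control libraries. Gli2 was at 1511 ± 93.3 CPM (SD, n = 4 libraries, 1393 to 1602) in this class, Gli1 at 60.2 ± 3.82 (55.5 to 63.8), Mycn at 94 ± 4.03 (88.1 to 96.6) and Ptch1 at 470.4 ± 21.2 (447 to 490.2). For Gli1, Gli2 and Mycn the lowest progenitor library lay above the highest library of every other class. Ptch1 was next highest in astroglia-like cells at 407 ± 68.7, where the libraries (307 to 459) overlapped those of the progenitors.

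The other 5 genes had their highest mean elsewhere. Smo was at 97.3 ± 5.47 CPM in progenitors and 103 ± 20.4 in fibroblast-like cells, with overlapping libraries. Gli3 was highest in astroglia-like cells (476 ± 35.9) and at 234 ± 7.75 in progenitors. Hhip, a membrane protein that binds and sequesters hedgehog ligand, was at 806 ± 123 in an unnamed cluster, cluster 15, whose leading genes include Tnxb, Nphs1, Prdm13 and Hhip itself, and at 129 ± 12.5 in GABAergic interneuron-like cells. Cluster 15 held 7 markers of granule progenitors, among them the cell-cycle genes Mki67 and Top2a, and 4 of GABAergic interneurons. It went unnamed because Atoh1, Mfap4 and Barhl1 were not among them. In progenitors Hhip was at only 5.59 ± 1.88 CPM, with libraries from 3.01 to 7.48. Ccnd1 was at 161 ± 21.1 in endothelial-like cells and 145 ± 9.79 in progenitors, and Ccnd2 at 1081 ± 121 in cluster 15 and 986 ± 181 in progenitors; in both pairs the libraries overlapped.

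Shh itself, the ligand, was counted at 0 UMIs in the progenitors of all 4 control libraries and at 1 UMI each in Insm1 mutant 3 and Tead1/2 mutant 2. It was found mainly in cluster 20, an unnamed cluster of 126 cells with markers of more than 1 class. Its leading genes include the Purkinje cell genes Car8 and Calb1, and it held 8 markers of skeletal muscle, among them Myh3 and Acta1, beside 6 of Purkinje cells, at a median of 2140.5 UMIs a cell. In it, 119 Insm1 mutant cells held 23 UMIs of Shh (17.3 CPM) and 4 Tead1/2 mutant cells held 8 UMIs. The other 3 cells were control cells, and neither these nor the 4 are enough to set a level. The ligand's level in its source could therefore not be compared at P7. Across 8 named classes, among 12477 genes, Gli2 had the pattern most like Gli1 (Pearson r = 0.969 over 8 class means, which share the same 4 libraries; a description), followed by Zc3h14 (0.967) and Mrpl49 (0.96). The genes most like Ptch1 were Rsph9 and Katnal2 (both 0.952).

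**Figure D1:**
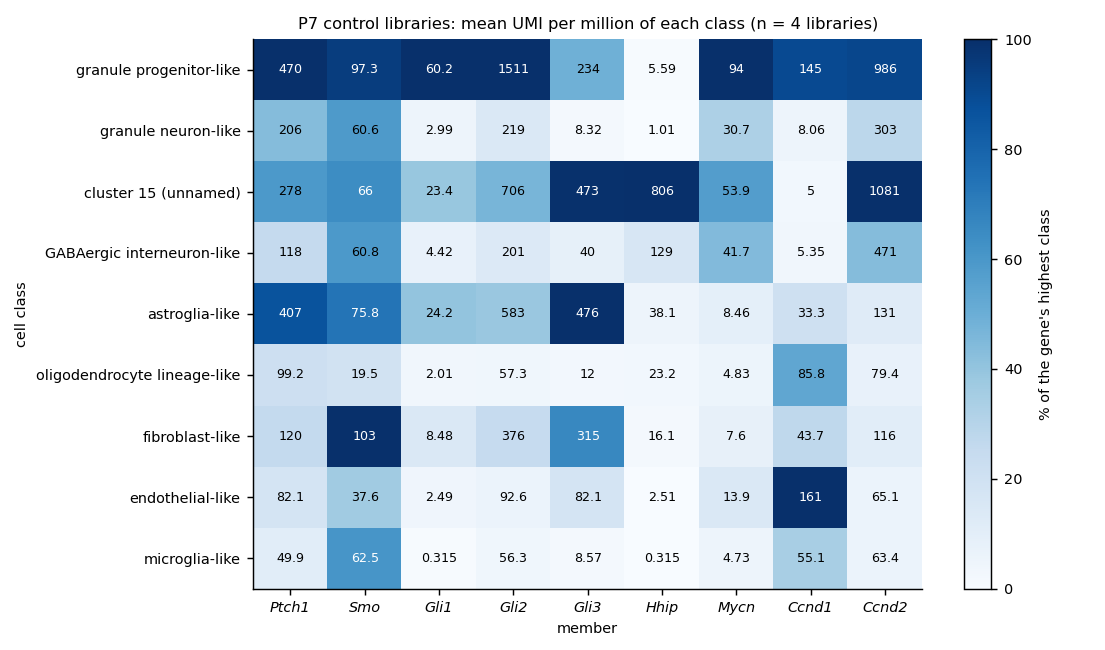
Mean level of each of the 9 genes in each P7 cell class of the 4 control libraries, as a percentage of that gene's highest class; rows are classes and columns genes. Gli1, Gli2, Mycn and Ptch1 peak in the granule progenitor-like row, and Hhip peaks in cluster 15 and is near 0 in progenitors.

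In the granule progenitor-like class at P7, taken as a whole, the pathway genes moved in opposite directions in the mutants. Between 48.4% and 84.0% of the progenitors of each mutant lay in clusters nearly absent from controls. Within the shared clusters the directions of Gli1, Gli2, Ccnd1 and Ccnd2 varied (given below). Ptch1, Hhip and Ccnd1 rose and Gli2 and Ccnd2 fell in both deletions. Gli1 fell in the Insm1 mutants, and Smo and Gli3 fell in the Tead1/2 mutants. UMIs were summed over the progenitors of each animal (779 to 2599 cells and 5457028 to 17816822 UMIs a library) and tested with edgeR's quasi-likelihood test; adjusted p values are Benjamini-Hochberg values over all 15098 genes tested. In the Insm1 comparison 6 of the 9 genes passed an adjusted p of 0.05, 3 higher and 3 lower, where 17.1% of all genes passed (9.62% higher, 7.49% lower). Of the 9, 7 passed in the Tead1/2 comparison, 3 higher and 4 lower, where 18.5% of all genes passed (9.79% higher, 8.68% lower). The median log2 change of the 9 genes was 0.00 in the Insm1 mutants, beside 0.01 over all genes, and -0.26 in the Tead1/2 mutants, beside -0.01.

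Among the receptors, Ptch1 (ENSMUSG00000021466) was counted at 447 and 458 CPM in both Insm1 control pups and at 551, 562 and 652 in the mutants. Every mutant lay above both controls, and the difference was 0.37 ± 0.08 on the log2 scale (estimate ± SE; adjusted p = 0.00504). The Tead1/2 controls were at 486 and 490.2 and the mutants at 647, 678 and 666, again with no overlap (0.39 ± 0.08, adjusted p = 0.00316). Groups did not overlap for 46.4% of all genes in the Insm1 comparison and for 43.6% in the Tead1/2 comparison, so the lack of overlap alone is common here. The Insm1 call was lost without control 1 (0.33, adjusted p = 0.0594) and with Scrublet's automatic doublet threshold (0.23, adjusted p = 0.148).

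Smo, the seven-transmembrane transducer that Ptch1 restrains, did not pass in the Insm1 comparison. Its level was 96 and 105 in the Insm1 controls and 94.1, 96.5 and 87 in the mutants; the groups overlapped and the log2 difference was -0.13, with a 95% interval from -0.27 to 0.02. For Tead1/2 it was 94.3 and 93.4 in the controls and 79, 82.8 and 83 in the mutants. All 3 mutants lay below both controls (-0.26 ± 0.07, adjusted p = 0.0236), although the call was lost without any 1 of control 1, control 2, mutant 2 or mutant 3 (adjusted p = 0.207, 0.131, 0.0825 and 0.0545).

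Hhip (ENSMUSG00000064325), the ligand trap and Gli target, gave the largest fold among the 9 genes in both deletions. Its level was 6.21 and 7.48 CPM in the Insm1 control pups and 19, 14.8 and 28.8 in the mutants, from 94 and 75 against 169, 147 and 157 UMIs. All mutants were above both controls, and the log2 difference was 1.58 ± 0.30, a 2.98-fold rise (adjusted p = 0.00279). The Tead1/2 controls were at 5.67 and 3.01 (101 and 38 UMIs) and the mutants at 14.8, 14.4 and 21.5 (148, 155 and 240 UMIs), a difference of 1.86 ± 0.31 or 3.63-fold (adjusted p = 0.000853). Without Insm1 control 1 the Insm1 value was 1.42 (adjusted p = 0.0544). Other cells of the same mutants carried far more Hhip: cluster 17, a muscle-like cluster with 2 cells in all controls, was at 194 in the Insm1 mutants and 146 in the Tead1/2 mutants. Microglia-like cells, pooled per group, were at 0 CPM in controls and 1.33 in mutants of the Insm1 cross, and at 0.827 and 5.02 in those of Tead1/2. The part of free RNA in the progenitor values was not tested.

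Of the Gli factors, Gli1 (ENSMUSG00000025407) fell in the Insm1 mutants. It was at 63.8 and 62.7 CPM in the controls and 51.2, 36.4 and 43.6 in the mutants, with all mutants lower (-0.54 ± 0.11, adjusted p = 0.00505). For Tead1/2 the controls were at 55.5 and 58.6 and the mutants at 54.5, 49.7 and 55.1. These barely separated, and the difference of -0.16 (95% interval -0.38 to 0.06) did not pass (adjusted p = 0.409), although it did with the automatic doublet threshold (-0.62, adjusted p = 0.00127). Gli1 is a direct target often read as a measure of pathway activity, and in the Insm1 mutants it moved against Ptch1 and Hhip, which are direct targets too.

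Gli2 (ENSMUSG00000048402), the main activator, fell in both deletions. It was at 1482 and 1393 CPM in the Insm1 controls against 1194, 1055 and 1087 in the mutants (-0.38 ± 0.11, adjusted p = 0.0378). Tead1/2 animals had 1567 and 1602 against 1242, 904 and 1155 (-0.58 ± 0.11, adjusted p = 0.00275). No mutant reached its controls. The Insm1 call was lost without control 1, control 2, mutant 2 or mutant 3, with log2 differences of -0.35, -0.42, -0.35 and -0.36 and adjusted p values of 0.195, 0.12, 0.134 and 0.126. It was also lost when doublets were removed as the highest 5% or 10% of scores (-0.30 in each, adjusted p = 0.0704 and 0.0745), with the automatic threshold (-0.32, 0.175) and at a Leiden clustering resolution of 0.5 (-0.29, 0.0754).

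Gli3, the repressor-type factor, did not separate in the Insm1 comparison, with 226 and 244 in the controls and 248, 230.2 and 232 in the mutants (0.00 on the log2 scale, 95% interval -0.15 to 0.15). For Tead1/2 it was at 231 and 234 in the controls and 206, 184 and 176 in the mutants. All 3 mutants were lower (-0.35 ± 0.08, adjusted p = 0.00527). The direction depended on which cells were kept: with Scrublet's automatic doublet threshold the value was 0.11 (adjusted p = 0.592). That threshold marked 0 cells in Tead1/2 control 2 and 1 cell in Tead1/2 mutant 1, so it filtered the libraries unevenly. With the coarser clustering, at resolution 0.5, it was -0.14 (adjusted p = 0.299), and without control 1 or control 2 the call was lost (adjusted p = 0.0619 and 0.0601).

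The cell-cycle arm split. Mycn, the MYC-family target that sustains progenitor division, was at 88.1 and 94.5 in the Insm1 controls and 94.8, 89.5 and 101 in the mutants (0.05, 95% interval -0.16 to 0.25). Tead1/2 animals had 96.6 in both controls and 67.8, 86.2 and 90.2 in the mutants, lower in 3 of 3 but short of the threshold (-0.30 ± 0.10, adjusted p = 0.0595). It passed without mutant 3 (-0.37, adjusted p = 0.026), with the dissection as a block (-0.33, adjusted p = 0.0248), with the automatic doublet threshold (-0.46, adjusted p = 0.0114), without the low-count filter (-0.32, adjusted p = 0.00627) and over the whole granule lineage (-0.36, adjusted p = 0.0203).

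Cyclin D1 and cyclin D2, which partner the same kinases at the start of the cycle, moved in opposite directions. Ccnd1 (ENSMUSG00000070348) was at 142 and 159 CPM in Insm1 controls and 242, 299.7 and 356 in the mutants, all above both controls (0.98 ± 0.23, 1.97-fold, adjusted p = 0.0101). The Tead1/2 controls were at 143 and 137 and the mutants at 159, 312 and 297 (0.82 ± 0.23, adjusted p = 0.0242). Tead1/2 mutant 1 lay close to the controls and the other 2 mutants far above them. Of these mutants only mutant 1 came from all lobules. So did Insm1 mutant 1, at 242 the lowest of its group. With 1 such mutant in each deletion, animal and dissection cannot be told apart. The Ccnd1 calls were lost without either control of the same deletion (adjusted p = 0.106 and 0.0591 for Insm1, 0.108 and 0.143 for Tead1/2) and, for Tead1/2, without mutant 2 or 3 (0.0786 and 0.0691), with DESeq2 (0.056) or with the automatic doublet threshold (0.0699).

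Ccnd2 (ENSMUSG00000000184) was at 1097 and 1183 CPM in Insm1 controls and 735, 615 and 508 in the mutants. The mutants lay far below the controls (-0.89 ± 0.14, adjusted p = 0.000769). The Tead1/2 groups were at 836 and 830.1 against 479, 592 and 670.1 (-0.58 ± 0.14, adjusted p = 0.0131), again with no overlap. That call was lost without control 1 or control 2 (adjusted p = 0.102 and 0.0821), and with the automatic doublet threshold the difference was larger (-0.88). In microglia-like cells, where few molecules were counted, Ccnd2 was at 89.1 (41 UMIs) in Insm1 controls and 14.6 (11 UMIs) in mutants, and at 33.9 (41 UMIs) and 15.8 (63 UMIs) in the Tead1/2 groups. Microglia lie outside the Atoh1 lineage, and these pooled values carry no test. Gli2 there was at 82.6 and 20 (Insm1) and at 33.1 and 10.3 (Tead1/2).

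**Figure D2:**
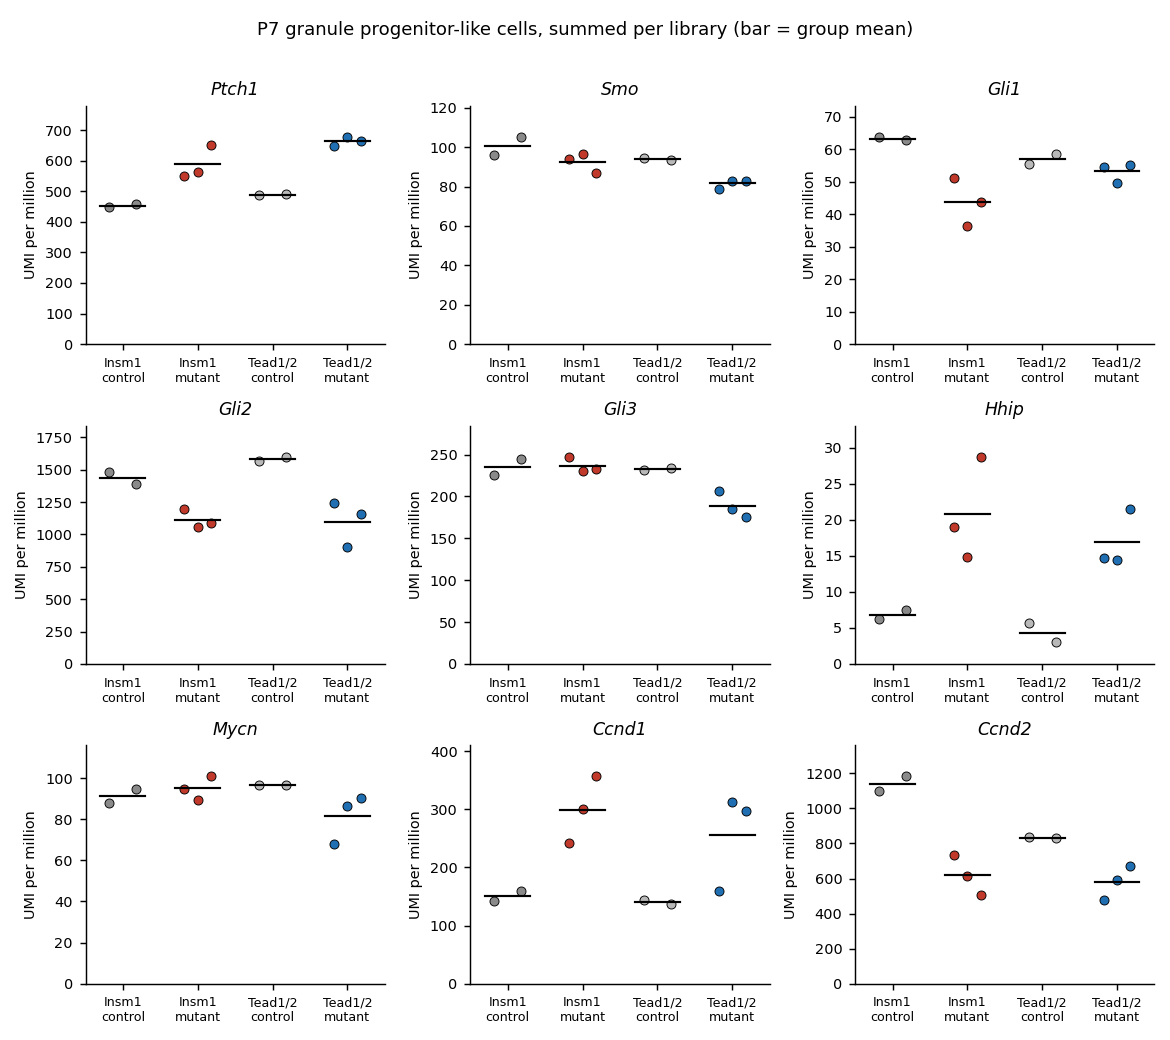
Level (vertical axis, UMIs scaled to the summed total) of each gene in the granule progenitor-like cells of each P7 library, 1 panel per gene; each point is a library and each horizontal line a group mean, with the 4 groups along the horizontal axis. Hhip, Ptch1 and Ccnd1 sit higher and Gli2 and Ccnd2 lower in mutants of both deletions, with Tead1/2 mutant 1 at 159 for Ccnd1, near its controls.

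With 2 controls, single control libraries carry much weight. Of the fits that left out 1 library, those without Insm1 control 1 and those without either Tead1/2 control lost the most calls among the 9 genes. In those fits the remaining control is assumed to vary like the other groups. The share of all genes called in them is not reported here. A loss particular to the 9 genes therefore cannot be told from a general loss of calls. Beside these changes, the summed level of 16 skeletal muscle genes in the progenitor class was 76.7 and 81.1 in the Insm1 controls and 206 to 282 in the mutants, and 68.3 and 86.7 in the Tead1/2 controls and 343 to 1318 in the mutants. Of the 16, 6 and 14 rose (37.5% and 87.5%, beside 9.62% and 9.79% of all genes). Summed over 18 cell-cycle genes, several of which also served as progenitor markers, levels were 3870 to 4171 in the Insm1 controls and 3381 to 3570 in the mutants, and 3992 to 4117 and 3653 to 4127 in the Tead1/2 groups; 0 of 18 rose and 3 fell in each (16.7%, beside 7.49% and 8.68% of all genes). The part of muscle transcripts and of the division rate in the pathway values was not tested.

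The response of the 9 genes was also compared between the deletions, as the Insm1 difference minus the Tead1/2 difference. None of the 9 passed, where 1.09% of all genes did. Gli3 came nearest, at 0.36 ± 0.11 (adjusted p = 0.196), and Gli1 was at -0.39 ± 0.16 (adjusted p = 0.42) and Mycn at 0.35 ± 0.15 (adjusted p = 0.422). For the genes called in both deletions the intervals remained wide: -0.23 to 0.19 for Ptch1, -1.13 to 0.56 for Hhip, -0.12 to 0.52 for Gli2, -0.46 to 0.78 for Ccnd1 and -0.71 to 0.09 for Ccnd2. A difference in Gli1, Smo or Gli3 between the deletions was therefore not shown, although each passed in only 1 of them. Without Tead1/2 mutant 1, Gli3 passed in this comparison (0.43, adjusted p = 0.0239).

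The rest of the pathway was read from a list of 51 further genes by role, of which 47 were tested in progenitors. In the Insm1 mutants 4 rose and 6 fell (8.51% and 12.8%, beside 9.62% and 7.49% of all genes). In the Tead1/2 mutants 7 rose and 7 fell (14.9% each, beside 9.79% and 8.68%). The share that rose in the Insm1 mutants was thus no higher than that over all genes. Of the co-receptors, Cdon, which binds Shh beside Ptch1, rose most: 5.55 and 3.59 CPM in the Insm1 controls against 35.7, 29.8 and 35.9 in the mutants (2.83 ± 0.18, adjusted p = 5.16e-07), and 3.59 and 3.33 against 18, 22.5 and 18.6 in the Tead1/2 animals (2.45 ± 0.19, adjusted p = 1.31e-06). Every mutant was far above every control. Cdon is also known in skeletal muscle differentiation, and the muscle-like class of the same mutants held 33.7 (Insm1) and 71 (Tead1/2). Mutant cells of cluster 5, a progenitor-like cluster described below, held 49.7 (Insm1) and 61.4 (Tead1/2). In astroglia-like cells Cdon was at 0.531 and 0.588 in the Insm1 controls and 2.58 to 3.79 in the mutants. For Tead1/2 it was at 0 in the controls and 0.524 to 1.09 in the mutants. Boc, the related co-receptor, was at 694 and 699.6 against 729, 753 and 798 in the Insm1 animals and did not pass in either comparison; nor did Gas1.

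Sufu, a brake on the pathway that holds Gli proteins inactive in the cytoplasm, was at 166 and 167 against 197, 216 and 199 CPM in the Tead1/2 animals (0.24 ± 0.07, adjusted p = 0.0342). It did not pass in the Insm1 comparison (0.20, adjusted p = 0.0797). Among the other brakes, Spop, an adaptor for the degradation of Gli proteins, rose in both (0.56 for Insm1 and 0.67 for Tead1/2), and Gpr161, a ciliary receptor that promotes Gli repression, fell in the Insm1 mutants (-0.62).

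Of 12 genes for cilium transport, which Smo signalling needs, 0 rose and 3 fell in the Insm1 mutants (25% lower, beside 7.49% of all genes: Rpgrip1l -0.38, Ift80 -0.24 and Ift88 -0.26). In the Tead1/2 mutants 0 rose and 2 fell (16.7% lower, beside 8.68%: Ift80 -0.28 and Cep290 -0.22). Ift88 and Cep290 fell outside the rule for named genes and were named after their values were seen. The median log2 change of these 12 genes was -0.12 and -0.22, beside 0.01 and -0.01 over all genes. Evc, part of a ciliary complex that carries the signal from Smo, fell in both (-0.34 and -0.73). Among other reported targets and partners, Igf2, a growth factor, rose in both (2.46 and 2.24), as did Cdk6, a cyclin D partner (0.59 in each; lower at P2 in the Tead1/2 mutants, where DESeq2 gave -0.35 and an adjusted p of 0.0239), and Sfrp1, a secreted Wnt modulator, fell in both (to 0.524 and 0.501 of the control level). The Igf2 and Sfrp1 changes were not confined to progenitors. In astroglia-like cells Igf2 also rose in the Tead1/2 mutants (2.75, edgeR adjusted p = 0.0256). Sfrp1 fell there in the Insm1 mutants (-1.55, edgeR adjusted p = 0.0113). Atoh1, which keeps progenitors competent for Shh and is also one of the class markers, fell in the Tead1/2 mutants (-0.89).

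The progenitor class was not made of the same clusters in controls and mutants. Clusters 0 to 3 held nearly all control progenitors, and clusters 5, 21 and 27 held 0.0439% to 0.115% of them. In the Insm1 mutants these 3 clusters held 61.0%, 81.8% and 84.0% of progenitors, and in the Tead1/2 mutants 48.4%, 73.5% and 62.8%. Cluster 5 met the naming rule for 10 progenitor markers and cluster 27 for 8, without Atoh1 and Mfap4. Cluster 21 met it for 3 (Mfap4, Barhl1 and Mcm6). Clusters 0 to 3 met it for 6 to 10, with Atoh1 in clusters 1 and 3 only. Whether the cells of cluster 21 are progenitors was not tested. In Insm1 mutant cells Insm1 was at 1.96 to 5.03 CPM in clusters 5, 21 and 27 and at 40.0 to 77.1 in clusters 0 to 3, so clusters 0 to 3 of the mutants kept Insm1 transcripts. The values below pool the cells of each genotype per cluster and are descriptions without a test.

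Ccnd1 was highest in the mutant clusters. In clusters 5, 21 and 27 it was at 275, 474 and 409.7 CPM in the Insm1 mutants and 314, 342 and 342 in the Tead1/2 mutants, above the controls of clusters 0 to 3 (46.2 to 189). In clusters 0 to 3 the mutants were at 143 to 196 (Insm1) and 58.5 to 153 (Tead1/2). Within these clusters the direction varied. In cluster 2 Ccnd1 was higher in the mutants, at 158 and 153 against 56.6 and 46.2 in the controls. In cluster 3 it was lower, at 143 and 58.5 against 159 and 152, and in cluster 1 it was at 180 and 129 against 189 and 175. In cluster 0 it was at 196 against 133 for Insm1 and at 143 against 146 for Tead1/2. Within each deletion Ccnd2 was lower in clusters 5, 21 and 27 of the mutants than in control clusters 0 to 3. It was at 454 to 571 against 809 to 1239 for Insm1 and at 229.5 to 487 against 537 to 927 for Tead1/2. In clusters 0 to 3 the mutants were at 776 to 1061. Within cluster 2 Ccnd2 was higher in the mutants, at 967 and 791 against 809 and 537. It was lower in cluster 3 (891 and 776 against 1170.4 and 861), and in clusters 0 and 1 it was lower for Insm1 (872 and 1061 against 1127 and 1239) and close to the controls for Tead1/2 (878 and 936 against 923 and 927). Ptch1 was at 531 to 763 in the mutant clusters and 308 to 539 in the control clusters. Mutant cells of cluster 2 also held more Ptch1, 628 and 623 against 308 and 349 in the controls. In cluster 0 they were at 513 and 549 against 435 and 508. In clusters 1 and 3 the mutants were close to the controls, at 548 and 545 against 518 and 539, and at 468 and 518 against 462 and 502.

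Gli2 was at 1163, 592 and 895 (Insm1) and 652, 661 and 1035 (Tead1/2) in clusters 5, 21 and 27. In control clusters it ranged from 931 to 1894 and in clusters 0 to 3 of the mutants from 859 to 1782. In cluster 2 the mutants were higher than the controls, at 1442 and 1501 against 931 and 1021. They were lower in cluster 0 (859 and 973 against 977 and 1187) and in cluster 1 (1631 and 1782 against 1768 and 1894). In cluster 3 they were close to the controls (1548 and 1688 against 1531 and 1692). Hhip reached 42.7 in cluster 27 of the Insm1 mutants and 27.3 in cluster 5 of the Tead1/2 mutants. It was higher in the mutants in clusters 0 to 3 as well, for example 14.9 and 13.9 against 3.92 and 3.27 in cluster 1. Gli1 was at 29.1 to 60.7 (Insm1) and 33.4 to 64.3 (Tead1/2) in clusters 5, 21 and 27, inside its control range over clusters 0 to 3 of 14 to 83.6. In cluster 2 it was at 59.6 in the mutants of each deletion against 16.9 and 14 in the controls, higher where the class as a whole was lower in the Insm1 mutants; in cluster 3 the mutants were lower, at 53.3 and 47.9 against 75.4 and 69.6. Myog, the muscle regulator, was at 8.98 to 25.0 in clusters 5, 21 and 27 and at 0 to 0.918 in the controls of clusters 0 to 3. Mutant cells of clusters 0 to 3 held 0.648 to 8.62, the highest in cluster 0 (8.62 for Insm1, from 11 UMIs, and 5.91 for Tead1/2, from 9 UMIs), and its part in these differences was not tested. Myog was not confined to progenitors. Astroglia-like cells held 0 to 16.8 a library in the Insm1 mutants and 4.19 to 13.3 in the Tead1/2 mutants, beside 0 to 0.678 in the controls.

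**Figure D3:**
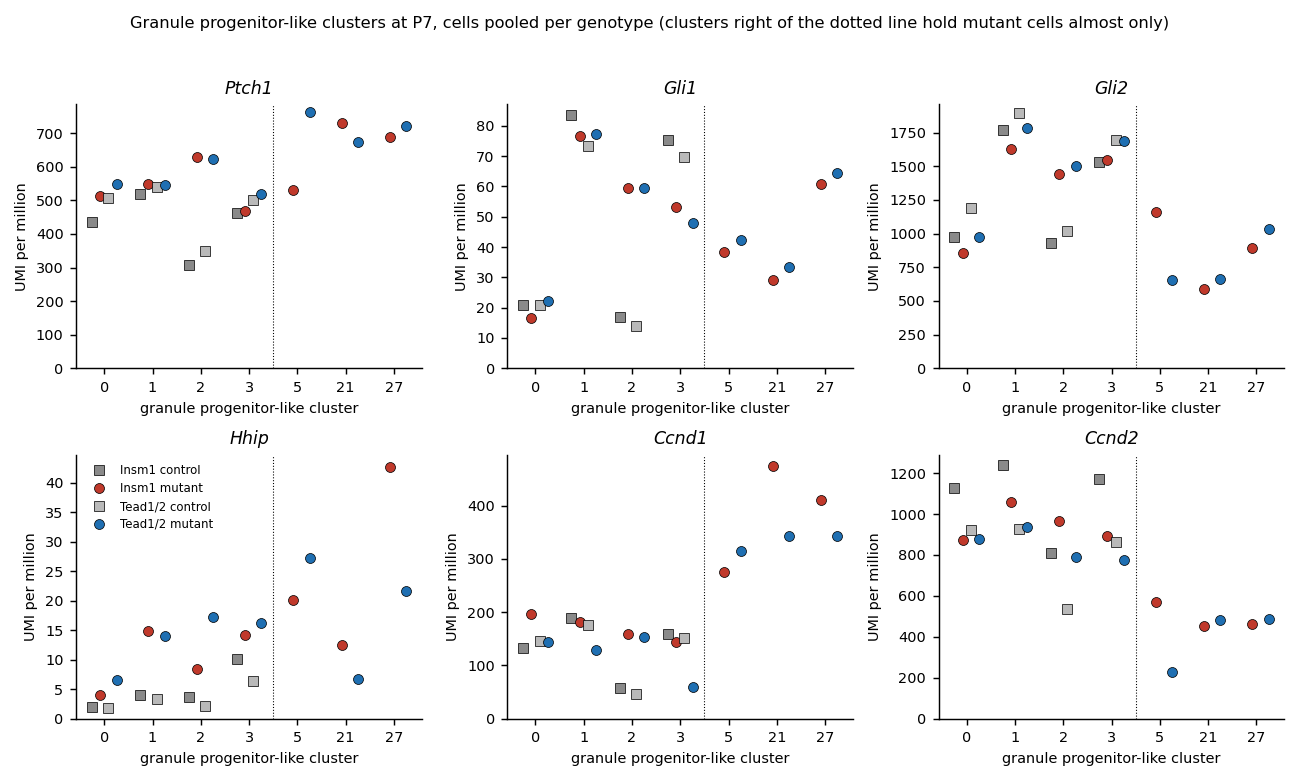
Level of Ptch1, Gli1, Gli2, Hhip, Ccnd1 and Ccnd2 in the P7 granule progenitor-like clusters, 1 panel per gene, in CPM (vertical axis) with the cells of each genotype pooled; clusters 5, 21 and 27, right of the dotted line, hold mutant cells almost only, and groups under 50 cells are not drawn. Ccnd1 is higher and Ccnd2 and Gli2 lower to the right of the line than in most of clusters 0 to 3.

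Promoter sequence was printed for the genes that moved together in both deletions and for those that held a GLI core or TEAD motif. RefSeq windows on GRCm38.p6, 250 bases before to 50 after the annotated start, were held for 6 of the 9 genes; Gli1, Ccnd1 and Ccnd2 are named only. The windows shown are Ptch1 at chr13:63565686-63565985 (minus strand), Hhip at chr8:80057959-80058258 (minus), Gli2 at chr1:119053570-119053869 (minus), Smo at chr6:29735247-29735546 (plus) and Mycn at chr12:12941787-12942086 (minus), each written 5′ to 3′ on the gene's strand. Capitals mark a match to a GLI core (CCACCCA or its reverse complement TGGGTGG) or to a TEAD motif (CATTCC or GGAATG).
Ptch1: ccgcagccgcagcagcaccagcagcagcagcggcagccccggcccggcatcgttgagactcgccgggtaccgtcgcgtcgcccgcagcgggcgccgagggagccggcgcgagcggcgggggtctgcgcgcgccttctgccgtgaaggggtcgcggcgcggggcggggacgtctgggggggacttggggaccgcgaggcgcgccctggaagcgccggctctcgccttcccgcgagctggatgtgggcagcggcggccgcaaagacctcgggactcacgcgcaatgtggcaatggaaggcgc
Hhip: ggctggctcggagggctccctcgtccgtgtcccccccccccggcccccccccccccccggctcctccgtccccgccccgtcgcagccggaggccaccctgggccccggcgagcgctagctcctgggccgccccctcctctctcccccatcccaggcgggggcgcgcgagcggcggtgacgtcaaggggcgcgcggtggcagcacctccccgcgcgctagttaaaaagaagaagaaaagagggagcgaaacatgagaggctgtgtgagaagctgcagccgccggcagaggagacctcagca
Gli2: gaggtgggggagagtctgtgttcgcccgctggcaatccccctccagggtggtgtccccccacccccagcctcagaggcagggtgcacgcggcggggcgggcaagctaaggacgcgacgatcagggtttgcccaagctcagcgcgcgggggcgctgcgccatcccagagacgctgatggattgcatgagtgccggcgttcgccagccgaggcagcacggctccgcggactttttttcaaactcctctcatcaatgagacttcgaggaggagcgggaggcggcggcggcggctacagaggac
Smo: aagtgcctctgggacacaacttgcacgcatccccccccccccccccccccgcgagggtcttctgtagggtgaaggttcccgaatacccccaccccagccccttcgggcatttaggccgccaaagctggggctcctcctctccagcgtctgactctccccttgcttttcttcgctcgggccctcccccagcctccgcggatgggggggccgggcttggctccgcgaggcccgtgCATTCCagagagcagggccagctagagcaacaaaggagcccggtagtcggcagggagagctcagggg
Mycn: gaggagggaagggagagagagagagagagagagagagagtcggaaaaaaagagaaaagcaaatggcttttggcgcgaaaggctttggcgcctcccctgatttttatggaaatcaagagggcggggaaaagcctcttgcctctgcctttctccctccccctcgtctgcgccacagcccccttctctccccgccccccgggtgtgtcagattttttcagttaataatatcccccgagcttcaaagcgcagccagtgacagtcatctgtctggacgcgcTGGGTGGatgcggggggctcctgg

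The full GLI consensus searched, GACCACCCA or TGGGTGGTC, occurred in 0.253% of 32851 windows of this length and in none of the 6. The shorter GLI core, which lies inside it, occurred in 9.3% of all windows and in Mycn, 26 bases after the start. The TEAD motif occurred in 14.7% of all windows and in Smo, 17 bases before the start. E-boxes, CANNTG, occurred in 72.3% of all windows and in Gli3 and Mycn (2 matches). These short windows were rich in G and C, from 56.7% in Mycn to 76.3% in Ptch1, beside 53.8% over all windows. A match of letters is not a bound site, and enhancers outside these windows were not searched.

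When all kept cells of each P7 library were summed, the pathway genes were mostly lower in the mutants. For Insm1 6 of 9 passed (30% of all genes passed, 16.7% higher and 13.3% lower): Smo, Gli1, Gli2, Mycn and Ccnd2 fell and Hhip rose. For Tead1/2 8 of 9 passed (44.6% of all genes, 24.4% higher and 20.2% lower): Ptch1, Smo, Gli1, Gli2, Gli3, Mycn and Ccnd2 fell and Hhip rose. Ccnd1 was at 70.5 and 81.3 CPM in both Insm1 control pups and 97.7, 119.7 and 129.5 in the mutants, higher in 3 of 3 but short of the threshold (0.55 ± 0.20, adjusted p = 0.0578). It passed with the dissection as a block (0.49, adjusted p = 0.0331), with DESeq2 (0.54, 0.0158), without the low-count filter (0.57, 5.41e-10), with at least 2000 UMIs a cell (0.56, 0.0488) and without mutant 1 (0.65, 0.0403). Without the filter only the adjusted p moved far, not the estimate. The share of all genes called in that fit is not reported here. In the Tead1/2 animals the Ccnd1 groups overlapped (0.16, adjusted p = 0.544), and Ccnd1 passed without mutant 1 (0.36, adjusted p = 0.0218). Gli2 was at 778 and 760.4 CPM against 509, 475 and 444 in the Insm1 animals (-0.75 ± 0.13, adjusted p = 0.00135) and at 898 and 916 against 428, 302 and 411 in the Tead1/2 animals (-1.30 ± 0.13, adjusted p = 1.39e-05). Mycn was at 63.2 and 64.2 against 26.7, 29.6 and 32.9 in the Tead1/2 animals (-1.15 ± 0.08, adjusted p = 1.28e-06). For Insm1, the Hhip call was lost without control 1 (0.32, adjusted p = 0.202) or mutant 2 (0.49, adjusted p = 0.0551), and the Mycn call without control 2 (-0.27, adjusted p = 0.0858). For Tead1/2, the Hhip call was lost without control 2 (0.45, adjusted p = 0.0525).

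Ptch1 of the Tead1/2 mutants moved in opposite directions in all cells and in progenitors. In all Tead1/2 cells it was 337 and 335 in the controls and 280.4, 286 and 288 in the mutants, a fall of 0.29 on the log2 scale (adjusted p = 0.000874), whereas in their progenitors it rose. The share of progenitors among kept cells was 40.4% and 41.5% in the Insm1 controls and 30.7%, 30.6% and 30.3% in the mutants. It was 45.9% and 45.6% in the Tead1/2 controls and 29.3%, 23.4% and 25.4% in the mutants. Both differences, -10.4 and -19.7 percentage points, gave p = 0.1 in a two-sided exact permutation test, the smallest that 2 against 3 animals allow. Muscle-like clusters 17, 23 and 24 made up 10.9% to 12.5% of kept cells in the Insm1 mutants and 19.3% to 25.5% in the Tead1/2 mutants, beside 0% to 0.0532% in the controls. In the same sums 16 of 16 muscle genes rose in both deletions (median log2 change 5.13 and 7.33), and 16 and 18 of 18 cell-cycle genes fell (median -0.49 and -0.90). Their part in the all-cell pathway values was not tested. In summed or bulk tissue, fewer progenitors and less RNA of a gene per progenitor cannot be told apart.

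Astroglia-like cells, which also express Ptch1, Gli2 and Gli3 and lie mostly outside the Atoh1 lineage, served as a comparison. Of the 9 genes only Ccnd2 passed, in the Insm1 animals, where 0.805% of all genes passed: it was at 176 and 187 CPM in the controls and 94.4, 91.3 and 89.8 in the mutants (-0.99 ± 0.18, adjusted p = 0.0137). Every mutant was lower, as in progenitors, and Ccnd2 was also lower in the pooled microglia-like cells of both deletions (given above). In the Tead1/2 animals 0 of 9 passed, where 1.41% of all genes did. Ptch1 was at 443 and 459 against 477, 416 and 423 in the Insm1 astroglia, with overlapping groups. Gli2 was at 657 and 549 against 529, 527 and 486 in the Insm1 animals (-0.24 ± 0.10, adjusted p = 0.369). In the Tead1/2 animals it was at 527 and 599 against 461, 453 and 429.7 (-0.36 ± 0.11, adjusted p = 0.12). Every mutant was lower in both, as in progenitors, without passing; groups did not overlap for 29.9% and 29.5% of all genes. Gli1 was at 23 and 19.7 against 14.1, 17.1 and 12 in the Tead1/2 animals, from 12 to 47 UMIs a library (-0.63 ± 0.24, adjusted p = 0.272), and its Insm1 groups overlapped.

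The astroglia calls depended on which cells were kept, as did the share of all genes called. With the highest 5% of doublet scores removed, 21.9% of all genes passed for Insm1 and 25.1% for Tead1/2; Gli1 (-0.46, adjusted p = 0.0116) and Gli2 (-0.49, adjusted p = 0.00117) passed beside Ccnd2 in the Insm1 animals. In the Tead1/2 animals Gli1 (-0.68), Gli2 (-0.80), Mycn (-1.16) and Ccnd2 (-0.95) passed as lower and Hhip (0.50) as higher, with adjusted p from 5.59e-05 to 0.0414. With the highest 10% removed the shares were 14.1% and 19.5%, for 3 and 4 of the 9 genes. With the automatic threshold, where 0.424% and 2.63% of all genes passed, the Insm1 Ccnd2 value was -0.68 (adjusted p = 0.189), and Ccnd2 passed in the Tead1/2 animals (-0.99, adjusted p = 0.0252). The Insm1 Ccnd2 call was also lost without control 1, control 2, mutant 2 or mutant 3 (adjusted p = 0.114, 0.13, 0.0535 and 0.0686), and the Tead1/2 animals gained it without control 2 (-0.74, adjusted p = 0.0394). Astroglia-like cells were few, 63 to 371 in a library, and carried the muscle genes at 138 to 238 in the Insm1 mutants against 57.1 and 66.3 in the controls, and at 360 to 628 in the Tead1/2 mutants against 64.0 and 71.2. The 18 cell-cycle genes summed to 575 and 649 in the Insm1 controls and 398 to 522 in the mutants, and to 118 and 516 against 232 to 342 in the Tead1/2 animals. The part of either list, or of free RNA, in the astroglia values was not tested.

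In whole P2 cerebellum, none of the 9 genes passed in either deletion. In the Insm1 comparison 0.689% of 19582 genes passed with edgeR (135 genes; 1763 at an unadjusted p under 0.05). DESeq2, which called 1.34%, called 3 of the 9: Gli1 (adjusted p = 0.00921), Gli2 (0.0421) and Ccnd1 (0.0174). Groups did not overlap for 4 of the 9 genes, 3 lower and 1 higher, where this held for 6.32% of all genes (3.55% lower, 2.77% higher). These 4 were Gli1, Gli2, Ccnd2 and Ccnd1, and the direction of each was that found in P7 progenitors. The 18 cell-cycle genes summed to 2248 to 2388 CPM in the same controls and 1972 to 2212 in the mutants, without overlap; 0 of 18 passed and 2 of 18 had a positive change. Their part in the pathway values was not tested.

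Gli1 was at 41.7, 35.7, 36.5 and 43.5 CPM in Insm1 controls 1 to 4 and 27.4, 29.7, 31.8 and 31.3 in mutants 1 to 4 (-0.38 ± 0.08, edgeR adjusted p = 0.094). Gli2 was at 51.2, 35.9, 29.5 and 48.6 in the controls and 13.9, 27.2, 24.6 and 29.4 in the mutants (-0.79 ± 0.23, adjusted p = 0.28). The Gli2 groups were separated by less than 1 CPM, between control 3 and mutant 4, and mutant 1 lay well below the rest. Ccnd1 was at 168, 174, 166 and 148 in the controls and 194, 199, 189.8 and 204 in the mutants (0.27 ± 0.07, adjusted p = 0.168). Ccnd2 was at 433, 435, 398 and 494 against 249, 366, 337 and 366 (-0.41 ± 0.12, adjusted p = 0.301). The cyclins thus lay apart in opposite directions at P2, without passing the test.

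The other P2 members of the Insm1 comparison overlapped between groups. Ptch1 was at 188, 167, 156 and 203 CPM in the controls and 115, 174, 171 and 186 in the mutants, with mutant 1 lowest. Smo was at 78.5 to 93 against 75.3 to 78.6, Gli3 at 30.4 to 42 against 23.1 to 38.5, Hhip at 22.7 to 27 against 21.4 to 26.7, and Mycn at 101 to 110.5 against 88.2 to 104. Hhip, the gene with the largest fold in P7 progenitors, was within 0.03 of no change on the log2 scale here (-0.03 ± 0.08). Shh was at 3.73 to 4.53 in the controls and 3.3 to 5.27 in the mutants (0.04 ± 0.15). Of the 49 further pathway genes tested, Sfrp1 alone passed with edgeR (-1.17 ± 0.08, adjusted p = 0.00027). DESeq2 called 4 of 51 (1.96% higher and 5.88% lower, beside 1.34% of all genes called). Sfrp1, E2f1 (-0.38) and Evc (-0.30) were lower and Cdon higher. E2f1 and Evc were named after their values were seen. Cdon was at 13.3, 10.5, 10.4 and 9.74 CPM in the controls and 13.4, 14.7, 19.5 and 16.2 in the mutants, with control 1 and mutant 1 nearly level (0.55 ± 0.13, edgeR adjusted p = 0.148, DESeq2 adjusted p = 0.0253). The 16 muscle genes summed to 33.0 to 58.0 CPM in the controls and 185 to 297 in the mutants.

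In the P2 Tead1/2 comparison edgeR called 0 of 20247 genes (0.0%; 4052 at an unadjusted p under 0.05), while DESeq2 called 1026 genes (6.28%), with Ccnd1 among them. Without the library labelled mutant 4, edgeR called 646 of 20234 genes (3.19%), again with Ccnd1 as the only one of the 9. Ccnd1 was at 199, 209 and 182 CPM in the controls and 287, 269, 308 and 198 in the mutants (0.41 ± 0.13, edgeR adjusted p = 0.141, DESeq2 adjusted p = 0.0199). With edgeR it passed with the replicate block (0.52, adjusted p = 0.0411) and without the low-count filter (0.42, adjusted p = 0.000309). Mutants 1 to 3 lay above every control and the library labelled mutant 4 inside their range; without it the difference was 0.52 ± 0.07 (adjusted p = 0.00516). The 18 cell-cycle genes summed to 2133 to 2447 CPM in these controls and 2408 to 2641 in the mutants, with overlap. With edgeR 0 of 18 passed (1 of 18 higher without that library), and DESeq2 called 4 of 18 higher (22.2%, beside 6.28% of all genes called). Their part in the Ccnd1 value was not tested. Groups overlapped for all 9 genes with that library and for 7 of 9 without it, Smo and Ccnd1 being the exceptions, where 17.4% and 25.2% of all genes did not overlap.

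Gli2 was at 20.3, 25.7 and 16.1 in the Tead1/2 controls and 14.4, 16.6, 16.1 and 21.4 in the mutants (-0.31 ± 0.15, adjusted p = 0.281). Gli1 was at 32.5, 37.4 and 28.8 against 28.9, 30.6, 31.1 and 35.6, and Ccnd2 at 302, 342 and 243 against 276, 283, 332 and 301. These groups overlapped throughout. Without the library labelled mutant 4 the Gli2 difference was -0.43 ± 0.13 (adjusted p = 0.117), and those of the other members apart from Ccnd1 ran from -0.16 (Gli1) to 0.14 (Smo) with none passing. Ptch1 was at 113 to 135 against 119 to 148, Smo at 68 to 80.9 against 78.2 to 88, Gli3 at 20.9 to 25.7 against 22.7 to 30.3, Hhip at 19.4 to 24.1 against 20.5 to 28.6 and Mycn at 101 to 115 against 98.5 to 112. Of the co-receptors, Gas1 was at 24.4, 23.3 and 24.2 in the controls and 34.1, 38.2, 34.5 and 27.2 in the mutants, all higher (0.45 ± 0.10, adjusted p = 0.0902; 0.54 and 0.00144 without the library labelled mutant 4). Cdon was at 10.3, 10.8 and 8.95 against 15.6, 18.9, 18.7 and 9.79 (0.62 ± 0.19, adjusted p = 0.132), with the library labelled mutant 4 inside the control range; without it the difference was 0.79 ± 0.09 (adjusted p = 0.00169). DESeq2, with all libraries, called 4 of 51 further pathway genes (3.92% higher and 3.92% lower, beside 6.28% of all genes called). Gas1 and Cdon were higher, and Lrp2 (-0.39) and Cdk6 lower, of which Lrp2 was named after its value was seen.

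**Figure D4:**
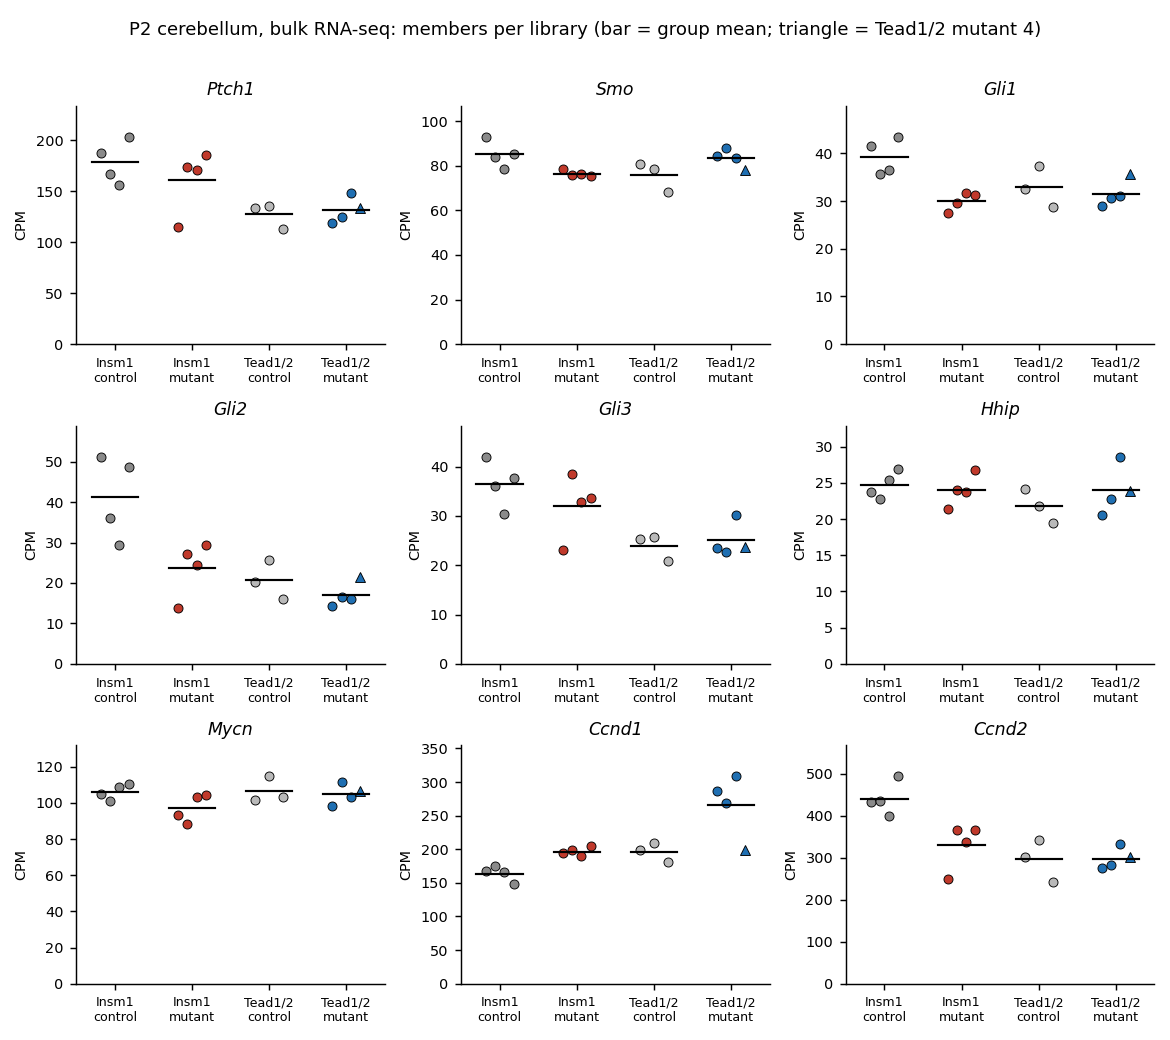
CPM of the 9 genes in each P2 cerebellum, 1 panel per gene; each point is a library and each horizontal line a group mean, with the 4 groups along the horizontal axis. Ccnd1 is higher in Insm1 mutants (189.8 to 204) than in their controls (148 to 174), and the library labelled Tead1/2 mutant 4 (198) sits among its controls.

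The P2 responses were also compared between the deletions. The difference of differences passed for 0 of 20837 genes (0.0%; 1435 at an unadjusted p under 0.05) with edgeR. All 9 point estimates were negative, the largest for Gli2 (-0.49 ± 0.32), with a median of -0.22 beside -0.01 over all genes. Of the 18 cell-cycle genes 0 had a positive estimate (median -0.26), and their part in these values was not tested. The smallest edgeR p belonged to Smo (-0.26 ± 0.09, adjusted p = 0.613). Without the library labelled Tead1/2 mutant 4, 0 of 20859 genes passed (0.0%; 1435 at an unadjusted p under 0.05) and all 9 estimates were again negative, with Gli2 at -0.37 ± 0.33, Ccnd2 at -0.39 ± 0.19 and Smo at -0.29 ± 0.09 (adjusted p = 0.573). The Insm1 libraries carry batch number 2 and the Tead1/2 libraries batch number 3 in the labels, so levels cannot be set against each other across deletions, and allele and batch cannot be told apart in this comparison.

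**Figure D5:**
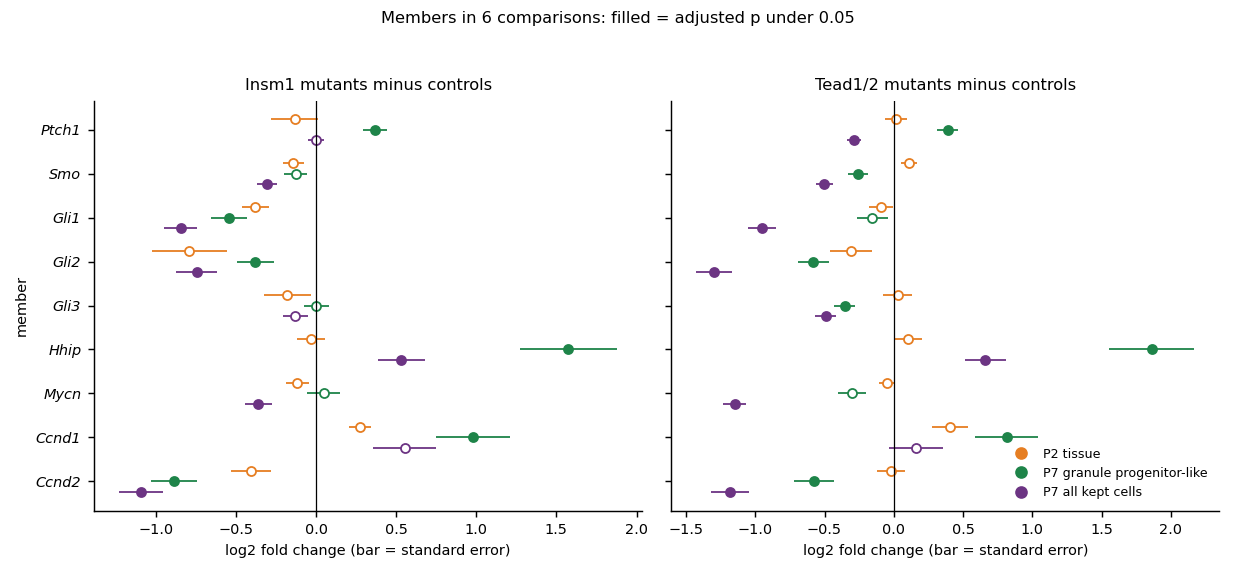
Log2 difference, mutant minus control, of the 9 genes in P2 tissue, P7 granule progenitor-like cells and all kept P7 cells for each deletion; bars are standard errors and filled points passed an adjusted p of 0.05. Ptch1 is above 0 in progenitors of both deletions (0.37 and 0.39) and at or below 0 in all kept cells, and no P2 point is filled.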

How the data were processed

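The authors deposited P2 RSEM expected counts per gene in tables whose names are swapped between the deletions; columns were matched to samples by column name, per the labels. Per the labels' protocols, RNA came from individual pups through a stranded total RNA kit, and P7 cells were papain-dissociated and barcoded by split-pool ligation (Parse Evercode). The deposited P7 matrices hold raw UMI counts. The submitters' processing notes name GRCm38.p6 and mm10, Trim Galore 0.6.3, STAR 2.7.9a, RSEM 1.3.3 and Seurat 4.4.0, without roles. ATAC and CUT&RUN samples were not analysed here.

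Expected counts were rounded to whole numbers and 92 spike-in rows removed. edgeR 4.0.16 (quasi-likelihood, TMM, filterByExpr; R 4.3.3) gave adjusted p values (Benjamini-Hochberg over all genes tested, threshold 0.05); levels are CPM, at P7 relative to the UMI total of the summed cells. DESeq2 1.42.0, normalization, filters, cell sets, dissection or replicate blocks, a sex term at P2 and left-out libraries were alternatives. Intervals are 95% (normal, from the SE) and cover the fit's error only. On simulated data, 2-fold changes were recovered for 75.0% of genes in the P2 Insm1 comparison and 81.3% in P2 Tead1/2. For the Insm1 comparison of P7 progenitors it was 71.7%. Of the calls, 5.17%, 7.57% and 4.73% were false. The Tead1/2 comparison of progenitors was not simulated. Changes smaller than 2-fold, as most of the 9 genes showed, were not simulated either, so their recovery is not known. Counts were drawn gene by gene, so a library apart from its whole group, like that labelled mutant 4, was not simulated. The recovery therefore does not carry over to the P2 Tead1/2 fit. That fit called 0 of 20247 genes and 0 of 16 muscle genes (median log2 change 3.19).

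P7 cells had at least 1000 UMIs, 500 genes and at most 15% mitochondrial UMIs. The planned removal of the highest 5% of Scrublet scores left clusters with markers of 2 classes; a score limit of 0.05 was therefore used, chosen before members' P7 values were computed. It kept 47642 of 79838 cells. In the Insm1 controls it kept 5644 of 10710 and 4414 of 8589 cells. The Insm1 mutants kept 4688 of 7220, 4562 of 7622 and 2570 of 4779. For Tead1/2 it kept 5660 of 9673 and 3721 of 6411 in the controls and 5511 of 7504, 5921 of 9722 and 4951 of 7608 in the mutants. Every mutant thus kept a larger share than both of its controls, and the part of this in the class shares and sums was not tested. Scrublet's automatic threshold did not work in 3 libraries. It marked 0 cells in Insm1 mutant 1 and Tead1/2 control 2 and 1 cell in Tead1/2 mutant 1. In the other libraries it marked 36.4% to 55.3% of cells, so fits with it compare libraries that were filtered unlike each other. Cluster membership with the highest 5% or 10% of scores removed shifted a little with numerical library settings, which were fixed. Clustering (scanpy 1.11.5, Leiden, resolution 1.0, 2000 variable genes, 30 components, 15 neighbours) left out the members and pathway list; names need at least 3 markers. Cells were never replicates.

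The members and lists were chosen with earlier results of these data known. All 9 members were named; of the pathway list, Shh, Cdon, Boc, Gas1 and Sufu, and up to 8 others with the smallest p among those called. Some genes that the list counts and cluster descriptions cover are not reported by name here.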

Additional observations from a re-analysis of the deposited data

Results flagged for a closer look

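Gli3 in P2 Tead1/2 mutant 3 was at 30.3 CPM, far from the other 3 mutants of its group, which were at 22.7 to 23.7 CPM. It was the only one of 27 gene and group combinations tested in which the highest or lowest library stood this far apart, and chance alone marks about 1 in 20.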

How the results depend on the processing

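Of 1350 values of single genes under alternative settings, 1275 stayed on their side of the threshold (66 of these changed sign without passing in either fit), 37 lost the call, 36 gained it and 2 reversed. The reversed values were Gli3 in Tead1/2 progenitors with Scrublet's automatic threshold (0.11), and Hhip (0.50) in Tead1/2 astroglia with the highest 5% of doublet scores removed; the cause was not tested. The number of the 9 genes called at P2 for Insm1 was 3 with DESeq2 (1.34% of all genes called) and 2 without the low-count filter. For P2 Tead1/2 it was 1 with DESeq2 (6.28% of all genes called), 1 without the filter and 1 with the replicate block (Ccnd1, 0.52, adjusted p = 0.0411). The share of all genes called without the filter or with the block is not reported here. In astroglia it was 3 for Insm1 with the highest 5% or 10% of scores removed and 0 with the automatic threshold, and 5, 4 and 1 for Tead1/2, with Gli1 and Gli2 among those gained in both deletions with the highest 5% or 10% removed, where 14.1% to 25.1% of all genes passed. Leaving out 1 library at a time gave 0 to 0 and 0 to 1 (P2 Insm1, Tead1/2), 2 to 6 and 3 to 7 (progenitors), 0 to 1 (difference between deletions in progenitors), 5 to 7 and 7 to 9 (all kept cells) and 0 to 1 in each astroglia comparison. Correlations of the deviations of same-numbered P2 libraries ran from -0.208 to 0.355, above 0.1 only for Insm1 number 4 and Tead1/2 number 1 (0.125), so the numbers were not taken to pair them; the replicate block changed no other call at P2. For the fits that left out 1 library, the share of all genes called is reported only for P2 Tead1/2 without mutant 4 (3.19%). With all libraries it was 17.1% and 18.5% in progenitors and 30% and 44.6% in all kept cells (Insm1, Tead1/2). The other ranges of genes called with 1 library left out therefore cannot be set against all genes. The number of animals, 2 controls and 3 mutants a deletion at P7, limits the precision.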
